A study of Mus musculus with 2 samples.

Results

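The 10 heat shock chaperone genes described here were Hspa1a, Hspa1b, Dnajb1, Hsph1, Hsp90aa1, Hspa8, Hsp90ab1, Dnaja1, Hspd1 and Hspe1, taken by symbol from the 26124 genes of the count tables. All 10 were found. They were divided into 5 inducible genes (Hspa1a, Hspa1b, Dnajb1, Hsph1 and Hsp90aa1) and 5 constitutive genes (Hspa8, Hsp90ab1, Dnaja1, Hspd1 and Hspe1). The genes were chosen with their levels in these libraries known, so that every ratio between the libraries is a description and carries no test.

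The data came from droplet single-cell RNA sequencing of spleen cells from 1 control mouse, labelled wild-type, and 1 mouse with sickle cell disease (SCD), which were compared to see how chronic hemolysis shifts splenic myeloid cells. The wild-type mouse carried the alpha globin deletion Hbatm1Paz on both alleles, the beta globin deletion Hbbtm1Tow on 1 allele and a single dose of the human sickle globin transgene Tg(HBA-HBBs)41Paz, and did not sickle. The SCD mouse carried all of these alleles in homozygous form and sickled. Both mice were 12 to 16 weeks old and untreated, and the study describes littermate controls of both sexes and a mixed strain background (Berkeley mice). The spleens had been disrupted mechanically, red cells were lysed, and dendritic cells (DCs) were enriched by a bead-based depletion of other cells. With 1 library per group no difference had a replicate check, and genotype, animal and library cannot be told apart. Intervals in brackets are exact 95% intervals that cover counting error only.

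Heat shock proteins of the HSP70 family bind exposed hydrophobic stretches of unfolded proteins and release them on ATP turnover. J-domain proteins deliver the client and trigger ATP hydrolysis, and nucleotide exchange factors of the HSP110 family, such as the product of Hsph1, reset the cycle. HSP90 proteins act later and mature kinases, steroid receptors and other clients, while HSP60 and HSP10, encoded by Hspd1 and Hspe1, form the folding chamber of the mitochondrial matrix. Cells keep a basal supply through constitutive genes, and inducible genes respond to protein damage through heat shock factor 1, which binds heat shock elements, inverted repeats of the unit GAA. Handling of a tissue is known to induce the same genes.

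The promoters of the inducible HSP70 pair and of 3 further members are shown because heat shock elements lie in them. They are the 250 bases before the start of the first RefSeq entry of each gene (GRCm38.p6), 5′ to 3′ on the strand of the gene, with heat shock element letters in capitals.
Hspa1a, chr17:34972157-34972406, minus strand: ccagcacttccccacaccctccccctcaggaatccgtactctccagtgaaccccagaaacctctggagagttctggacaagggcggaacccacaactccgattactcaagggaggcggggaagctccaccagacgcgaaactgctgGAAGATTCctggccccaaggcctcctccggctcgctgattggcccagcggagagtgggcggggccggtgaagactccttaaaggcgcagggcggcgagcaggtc
Hspa1b, chr17:34959239-34959488, minus strand: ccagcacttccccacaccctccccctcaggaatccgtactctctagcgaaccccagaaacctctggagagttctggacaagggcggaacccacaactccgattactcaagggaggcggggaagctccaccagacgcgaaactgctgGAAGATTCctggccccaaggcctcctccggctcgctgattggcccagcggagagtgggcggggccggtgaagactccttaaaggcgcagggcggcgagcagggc
Hsph1, chr5:149636337-149636586, minus strand: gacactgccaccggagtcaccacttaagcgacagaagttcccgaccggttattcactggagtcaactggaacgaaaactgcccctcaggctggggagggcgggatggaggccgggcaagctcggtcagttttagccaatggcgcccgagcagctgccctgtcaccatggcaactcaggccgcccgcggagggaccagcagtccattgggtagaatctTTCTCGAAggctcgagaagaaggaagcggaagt
Dnaja1, chr4:40722218-40722467, plus strand: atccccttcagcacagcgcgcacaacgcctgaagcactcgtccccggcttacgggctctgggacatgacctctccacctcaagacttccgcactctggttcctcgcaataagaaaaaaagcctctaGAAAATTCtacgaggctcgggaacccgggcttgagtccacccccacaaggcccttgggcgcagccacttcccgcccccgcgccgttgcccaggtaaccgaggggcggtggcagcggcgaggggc
Hspe1, chr1:55087898-55088147, plus strand: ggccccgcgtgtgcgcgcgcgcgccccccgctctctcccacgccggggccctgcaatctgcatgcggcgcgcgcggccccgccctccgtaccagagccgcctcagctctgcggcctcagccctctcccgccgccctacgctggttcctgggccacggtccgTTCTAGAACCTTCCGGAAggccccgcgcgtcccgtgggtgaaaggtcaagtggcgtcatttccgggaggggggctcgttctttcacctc
The search used elements of 2 units (GAANNTTC or TTCNNGAA) and of 3 units (GAANNTTC extended by NNGAA, or TTCNNGAA extended by NNTTC) on both strands, and each element of 3 units contains 2 overlapping elements of 2 units. An entry was found for 7 members, of which 6 held an element of 2 units and 2 an element of 3 units, against 12.8% and 0.466% of all 32851 RefSeq promoters. A member was counted when any of its entries matched, while the background counts single entries, so these shares differ in unit. Entries 2 and 3 of Dnaja1, both entries of Dnajb1 and the first of Hspd1 held no element. The element of Hspa1a and that of Hspa1b began 104 bases before the start, that of Hsph1 33 bases and that of Dnaja1 124 bases before it. In Hspe1, 3 overlapping elements began 79 to 89 bases before the start. The same letters lay in the second entry of Hspd1, which shares its promoter with Hspe1 and is transcribed the other way. Hspa8, Hsp90aa1 and Hsp90ab1 are named only. A match of letters is a description and not a binding site.

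Hspa1a (chromosome 17, 34969190 to 34972156, minus strand) and Hspa1b (chromosome 17, 34956436 to 34959238, minus strand) are neighbours with nearly the same product. Their coding sequences had 1915 identical columns in an alignment of 1926 (99.4%), and the 250 bases before their starts had 247 identical bases. The stretches after the stop codon were 810 and 643 bases long and 47.3% identical. Among 410 windows of 91 bases, the length of the study's cDNA reads, in the last 500 bases of each transcript, 0 also occurred in the last 500 bases of the other. How well reads from the coding part can be assigned was not tested, so the sum of both genes is given beside the single values. The remaining members lie apart from each other, apart from Hspd1 (chromosome 1, 55077835 to 55088243, minus strand) and Hspe1 (chromosome 1, 55088132 to 55091307, plus strand), whose 5′ ends overlap. Hsp90ab1 lies at 45567775 to 45573271 on chromosome 17, Hsp90aa1 at 110690605 to 110702728 on chromosome 12, Hsph1 at 149614287 to 149636376 on chromosome 5, Hspa8 at 40800984 to 40810087 on chromosome 9, Dnaja1 at 40722150 to 40737149 on chromosome 4 and Dnajb1 at 83608193 to 83612653 on chromosome 8 (GENCODE, GRCm38).

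The deposited tables held 10845 wild-type cells with 97880318 unique molecular identifiers (UMIs, counted molecules) and 13447 SCD cells with 189688217 UMIs. After the study's filters on genes, mitochondrial and ribosomal counts, 9423 and 10635 cells remained, with medians of 4884 and 8282 UMIs. The libraries shared 88 cell barcodes, 0.811% of wild-type barcodes and 0.654% of SCD barcodes. Clusters were named from marker genes as neutrophil-like (4358 wild-type and 7182 SCD cells), monocyte-like (1060 and 1341), conventional DC-like (2710 and 847), plasmacytoid DC-like (pDC, 759 and 496), red pulp macrophage-like (297 and 156), erythroid-like (55 and 53) and B cell-like (20 and 288). The names rest on these markers and are used below without the suffix. Chaperone and immediate early genes had been kept out of the genes used for clustering. Levels are UMIs of a gene per 1000000 UMIs of a class or library (CPM). A molecule is counted once at its 3′ end, so CPM is not divided by gene length. Ratios are SCD over wild-type on the log2(CPM + 5) scale, and folds of CPM are named as such. A gene entered the comparison in a class when it reached both 50 CPM and 20 UMIs in either library, and a gene was called at a 2-fold difference.

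By fold of CPM, the inducible HSP70 genes Hspa1a and Hspa1b differed more between the libraries than the other members in neutrophils, monocytes, conventional DCs and pDCs. In monocytes Hspa1a had 267 UMIs in the wild-type library, 26.5 CPM (23.4 to 29.8), and 22 UMIs in the SCD library, 1.17 CPM (0.730 to 1.76). Hspa1b had 694 UMIs, 68.8 CPM (63.8 to 74.1), and 39 UMIs, 2.07 CPM (1.47 to 2.82). For both genes the wild-type interval lay far above the SCD interval. Summed over the pair, the wild-type CPM in monocytes was 29.5-fold the SCD CPM (22.7 to 38.8).

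The same direction was seen in neutrophils, conventional DCs and pDCs, at lower levels. In neutrophils Hspa1a was at 2.39 CPM (38 UMIs) in wild-type against 0.149 CPM (9 UMIs) in SCD cells, and Hspa1b at 6.10 (97 UMIs) and 0.465 CPM (28 UMIs). In conventional DCs Hspa1a was at 8.99 CPM (213 UMIs) and 0.416 CPM (4 UMIs), and Hspa1b at 15.4 (364 UMIs) and 1.56 CPM (15 UMIs). The summed CPM of the pair was 13.8-fold higher in wild-type than in SCD neutrophils (9.55 to 20.5) and 12.3-fold higher in wild-type conventional DCs (7.82 to 20.6). In pDCs Hspa1a had 23 UMIs in the wild-type library and 0 in the SCD library, at least 3.92-fold higher against a floor of 3 UMIs in the SCD pDCs, and Hspa1b had 35 UMIs and 1 UMI, a ratio of CPM of 17.9 (3.01 to 728). The wild-type pDC molecules were unevenly spread. In cluster c20 (96 wild-type and 23 SCD cells, too few SCD cells for a level) Hspa1a was at 12.8 and Hspa1b at 14.3 wild-type CPM, against 0.820 and 2.19 CPM in the main cluster c9 (663 and 473 cells). Summed immediate early genes were at 3474 CPM in c20 and 1635 CPM in c9 of that library, and their part was not tested. Within c9 the pair had 22 UMIs and 0, at least 4.11-fold higher in wild-type against the same floor. With called doublets removed, the ratio of the pair over all pDCs fell from 29.7 (5.12 to 1193) to 13.6 (2.22 to 559). Red pulp macrophages held 8 UMIs and 1 UMI of the pair, with an interval of the ratio that includes 1 (0.690 to 228). Over all kept cells the pair had 2282 and 225 UMIs, 37.5 and 2.26 CPM, a ratio of 16.6 (14.5 to 19.1).

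The share of genes that differed as much is given as a description and lends no support. Genes entered by their wild-type UMIs alone, the library where Hspa1a and Hspa1b were high. The members were also chosen with their levels known. Among genes with at least 20 UMIs in the wild-type class, 0.904% of 9842 genes in neutrophils, 0.538% of 10401 in monocytes, 0.112% of 12456 in conventional DCs and 0.0566% of 10605 in pDCs were at least 10-fold lower in SCD CPM, where SCD counts under 3 UMIs were set to 3. Both Hspa1a and Hspa1b were among them in neutrophils and monocytes, Hspa1a was in conventional DCs, and with that floor neither was in pDCs. At its counted 1 SCD UMI, Hspa1b would have been past 10-fold in pDCs. In red pulp macrophages (0.239% of genes) and erythroid cells (0.434%) 0 members reached this size, and over all kept cells (1.88%) both Hspa1a and Hspa1b did. None of the 8 other members did in any class.

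**Figure D1:**
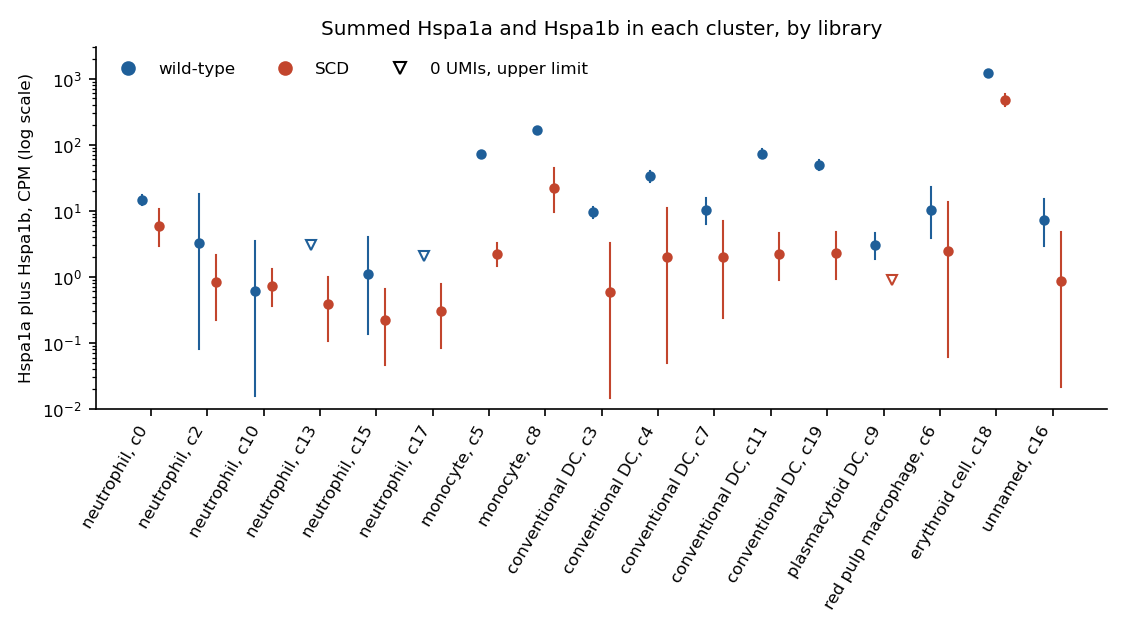
Summed Hspa1a and Hspa1b in CPM (log axis) in the 17 clusters with at least 50 cells in both libraries, grouped by cell class along the horizontal axis, with exact 95% Poisson intervals as vertical lines. The wild-type point lies above the SCD point in 14 clusters, with the widest gaps in monocyte and conventional DC clusters. The neutrophil clusters other than c0 hold 0 to 2 wild-type UMIs, and open triangles mark the upper limit of a count of 0.

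The mix of clusters differed between the libraries, so the pair was also compared cluster by cluster. Of 17 clusters with at least 50 cells in both libraries the summed CPM was lower in SCD in 14, with an interval of the ratio that excludes 1 in 11. It was higher in SCD in 3 neutrophil clusters with 0 or 1 wild-type UMI, and in 0 clusters did an interval lie on that side. In the cluster of classical monocytes (c5, led by Fn1, Vcan and F13a1, with 588 wild-type and 931 SCD cells) the pair was at 72.1 CPM in wild-type against 2.25 CPM in SCD cells, a ratio of 32.1 (21.6 to 49.7). In the non-classical monocytes (c8, led by Ace, Cd36 and Adgre4, 429 and 54 cells) it was at 165 and 22.4 CPM, a ratio of 7.38 (3.72 to 17.2).

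Among conventional DCs, the cluster with Cd209a and Clec10a (c11, 171 and 240 cells) held the pair at 72.6 and 2.23 CPM, a ratio of 32.6 (15.5 to 82.4). The Xcr1 and Clec9a cluster (c19, 168 and 212 cells) held it at 49.1 and 2.30 CPM, a ratio of 21.3 (10.1 to 54.1). The ratio was smaller in the other clusters compared. It was 16.3 (2.86 to 649) in the largest, c3 (1441 and 229 cells, 9.45 and 0.580 CPM), 16.8 (2.97 to 670) in c4 (617 and 86 cells, 33.1 and 1.97 CPM) and 5.17 (1.25 to 45.6) in c7 (187 and 64 cells, 10.1 and 1.96 CPM), on 1 or 2 SCD UMIs each. Neutrophils behaved otherwise. Most wild-type neutrophils (3664) lay in cluster c0, led by Il1b and Dusp1, whereas most SCD neutrophils lay in c13 (1646), c15 (1471), c2 (1250), c17 (1117) and c10 (714). Within c0 the pair was at 14.6 CPM in wild-type against 5.94 CPM in SCD cells, a ratio of 2.46 (1.33 to 5.04) in place of 13.8 over the class. In c2, c10, c13, c15 and c17 the pair had 0 to 2 UMIs in the wild-type library and 3 to 11 in the SCD library, and every interval included 1. The part of the different mix of clusters in the ratio over all neutrophils was not tested.

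Counting cells in place of molecules gave the same order. After each cell was thinned to 1000 UMIs, which leaves out shallower cells (at most 45 per library in these 4 classes), a Hspa1a or Hspa1b UMI was found in 85 of 1055 wild-type monocytes (8.06%, 6.49 to 9.87) and in 5 of 1340 SCD monocytes (0.373%, 0.121 to 0.869). In neutrophils the shares were 1.21% (0.902 to 1.58) and 0.0976% (0.0393 to 0.201), and in conventional DCs 1.85% (1.38 to 2.44) and 0.237% (0.0287 to 0.854). In pDCs they were 0.527% (0.144 to 1.34) and 0 of 495 cells, which allows up to 0.742%. No class is known to lack these genes, so the pDCs, with the lowest shares, served only as a rough reference for free RNA. Their medians were 11124 and 8834.5 UMIs per cell, against 9533.5 and 12964 UMIs in monocytes, and 2452.5 and 6954.5 UMIs in neutrophils. Against the upper limits of 1.34% and 0.742% for pDCs, the shares of wild-type monocytes and conventional DCs lay above, whereas that of wild-type neutrophils and those of SCD monocytes, neutrophils and conventional DCs did not. This reference was picked by the same shares, its wild-type molecules were unevenly spread over clusters, and the classes differed in depth. The limit therefore cannot separate expression from free RNA, and a share above it decides neither. Shares at or below the limit are not read as expression. Without thinning, 30.3% of wild-type and 3.28% of SCD monocytes held a UMI of the pair.

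Within the wild-type monocytes the pair was spread unevenly. The 5% of cells with most of it held 48.1% of its UMIs before thinning, and the highest cell held 34. Of the thinned wild-type monocytes with a Hspa1a UMI, 12 of 37 (32.4%, 18.0 to 49.8) also held a Hspa1b UMI, against 48 of 1018 (4.72%, 3.50 to 6.20) of those without. Dnajb1 was found in 1 of 37 and 37 of 1018 of these cells, and Hsph1 in 3 of 37 and 62 of 1018, with overlapping intervals. Hspa8 was found in 33 of 37 (89.2%, 74.6 to 97.0) and 722 of 1018 (70.9%, 68.0 to 73.7). Hspa1b and Hspa8 were thus found more often in cells with a Hspa1a UMI, and for Dnajb1 and Hsph1 no such difference was detectable at this depth. The correlation with Hspa1a over 1047 wild-type monocytes did not set Hsph1 apart from Hspa8. It was 0.17 for Hsph1, 0.15 for Hspa8 and -0.003 for Dnajb1.

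**Figure D2:**
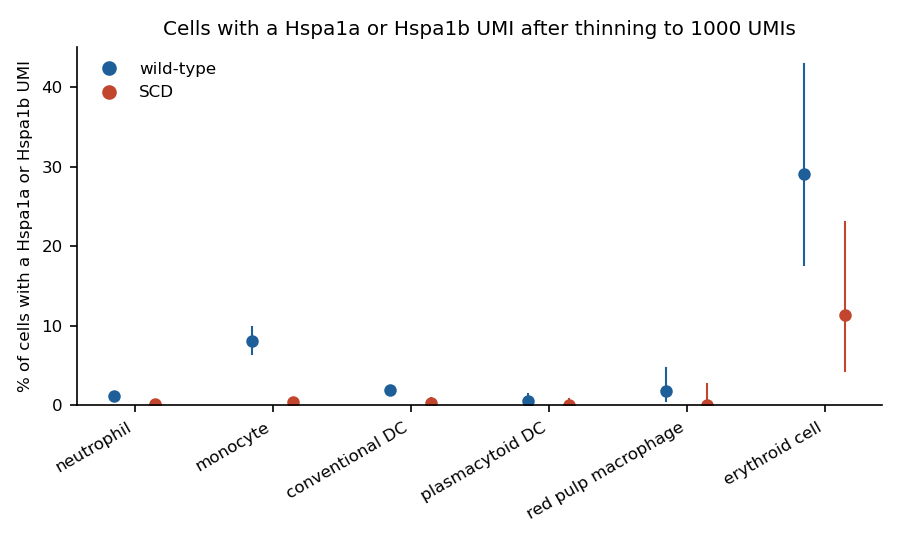
Percent of cells with at least 1 Hspa1a or Hspa1b UMI (vertical axis) after thinning to 1000 UMIs per cell, in 6 classes and both libraries, with exact 95% Clopper-Pearson intervals. The wild-type share is above the SCD share in every class drawn, and the intervals do not overlap in neutrophils, monocytes and conventional DCs.

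The cognate HSP70 gene Hspa8, which serves folding and clathrin uncoating in unstressed cells, was lower in SCD by much less. In neutrophils it was at 287 CPM (278 to 295) in wild-type against 172 CPM (168 to 175) in SCD cells, a log2 ratio of -0.72 (-0.77 to -0.67). In monocytes it was at 1370.2 and 1037 CPM (-0.40), in conventional DCs at 1086 and 867 CPM (-0.32) and in pDCs at 1003 and 746 CPM (-0.42). None of these reached 2-fold. Hspa8 was lower in SCD in 15 of 17 clusters, with 14 intervals on that side and 2 on the other.

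The J-domain genes both leaned the same way. Dnajb1, the inducible partner of HSP70 that also binds heat shock factor 1, was at 29.8 and 19.98 CPM in neutrophils (log2 ratio -0.48, -0.61 to -0.35), at 36.4 and 28.1 CPM in monocytes (-0.32, -0.49 to -0.15), at 33.8 and 26.5 CPM in conventional DCs (-0.30) and at 46.8 and 34.8 CPM in pDCs (-0.38). These levels stayed under 50 CPM, so Dnajb1 entered no comparison in these classes. The median over all genes compared was -0.38 in neutrophils, -0.08 in monocytes, -0.06 in conventional DCs and 0.00 in pDCs. In neutrophils the interval of Dnajb1 included that median. Dnajb1 was lower in SCD in 12 of 17 clusters and higher in 5, with 5 intervals on the lower side and 12 that include 1. Dnaja1, a constitutive partner of Hspa8, was at 182 and 93.4 CPM in neutrophils (-0.93, -0.99 to -0.86), at 246 and 138 CPM in monocytes (-0.82, -0.90 to -0.74), at 245 and 200.2 CPM in conventional DCs (-0.28) and at 263 and 165 CPM in pDCs (-0.65). It was lower in SCD in 15 of 17 clusters, with 9 intervals that exclude 1 and 0 on the other side.

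Hsph1, the HSP110 exchange factor, was lower in SCD monocytes, conventional DCs, pDCs and erythroid cells, and not apart in neutrophils, where it was at 2.71 CPM (43 UMIs) and 2.59 CPM (156 UMIs) with a log2 ratio of -0.02 (-0.20 to 0.15). In monocytes it was at 57.1 CPM (52.5 to 62.0) in wild-type against 19.8 CPM (17.8 to 21.9) in SCD cells, a log2 ratio of -1.33 (-1.49 to -1.16). In conventional DCs it was at 47.4 and 29.95 CPM (-0.59, -0.75 to -0.42) and in pDCs at 53.0 and 31.7 CPM (-0.66, -0.91 to -0.42). In red pulp macrophages the values were 38.3 and 23.8 CPM on 25 and 10 UMIs (-0.59, -1.56 to 0.37), an interval that includes 0, as did that of the few B cells, at 24.5 and 40.1 CPM on 4 and 84 UMIs (0.61, -0.63 to 1.98).

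The HSP90 genes did not share a direction. Hsp90aa1, the stress-responsive cytosolic HSP90, was at 129 and 142 CPM in neutrophils (0.13, 0.06 to 0.20), at 401 and 327 CPM in monocytes (-0.29, -0.34 to -0.23), at 435 and 444 CPM in conventional DCs (0.03, -0.02 to 0.08) and at 479 and 403 CPM in pDCs (-0.25, -0.33 to -0.17). Conventional DCs with under 5 UMIs of cell cycle genes after thinning had a ratio of -0.21 (-0.28 to -0.14). In those with at least 5 it was -0.11 (-0.19 to -0.03), and with at least 3 it was 0.03 (-0.04 to 0.10). Hsp90ab1, the constitutive cytosolic HSP90, was at 221 and 295 CPM in neutrophils (0.41, 0.36 to 0.46), at 1354 and 1425 CPM in monocytes (0.07, 0.04 to 0.10), at 1333 and 1361 CPM in conventional DCs (0.03, 0.00 to 0.06) and at 1686 and 1463 CPM in pDCs (-0.20, -0.25 to -0.16). Of 17 clusters, Hsp90aa1 was lower in SCD in 10 and higher in 7, with 7 and 6 intervals that exclude 1. For Hsp90ab1 these were 7 and 10 clusters, with 5 and 10 intervals. The monocyte ratio of Hsp90aa1 kept its sign over 13 alternative settings but ran from -0.16 at resolution 2 of the clustering to -1.01 with no upper limit on genes per cell, past 2-fold. The sign of the smaller ratios was not stable over these settings. It changed in 5 for Hsp90aa1 in conventional DCs, 2 in pDCs and 1 in neutrophils, and for Hsp90ab1 in 4 in conventional DCs and 2 in monocytes. The share of Hsp90aa1 among molecules of both genes was lower in SCD neutrophils, 37.0% (35.7 to 38.3) against 32.5% (31.9 to 33.0), and in SCD monocytes, 22.8% (22.2 to 23.5) against 18.7% (18.3 to 19.1). It was 24.6% in conventional DCs of either library, and 22.1% and 21.6% in pDCs with overlapping intervals. This share does not depend on the depth of a library.

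The mitochondrial pair Hspd1 and Hspe1 was higher in SCD neutrophils, unlike the HSP70 genes. There Hspd1 was at 25.1 CPM (22.7 to 27.7) in wild-type against 38.0 CPM (36.4 to 39.5) in SCD cells, and Hspe1 at 22.3 CPM (20.01 to 24.7) and 35.0 CPM (33.5 to 36.5), log2 ratios of 0.51 and 0.55. Both stayed under 50 CPM there. In monocytes Hspe1 was at 213 and 260 CPM (0.28, 0.21 to 0.36) and Hspd1 at 101 and 110 CPM (0.12, 0.01 to 0.22). The direction of Hspd1 in monocytes was not stable. Over 13 alternative settings its ratio ran from -0.18, with no upper limit on genes per cell, to 0.20. Among monocytes with few molecules of cell cycle genes (under 5 UMIs after thinning) it was -0.23 (-0.36 to -0.10), and among those with more it was 0.22 (0.00 to 0.44). In conventional DCs Hspd1 was at 123 CPM in both libraries and Hspe1 at 307 and 331 CPM, and in pDCs Hspd1 was at 118 and 119 CPM and Hspe1 at 442 and 433 CPM, so that the interval of the ratio included 1 for Hspd1 in both and for Hspe1 in pDCs. Each gene was higher in SCD in 12 of 17 clusters, with 7 intervals on that side for Hspd1 and 11 for Hspe1, and 2 and 1 on the other. The share of Hspe1 among molecules of the pair was 47.0% and 48.0% in neutrophils, 67.8% and 70.3% in monocytes, 71.5% and 72.9% in conventional DCs and 78.9% and 78.5% in pDCs. It thus varied more between classes than between libraries.

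**Figure D3:**
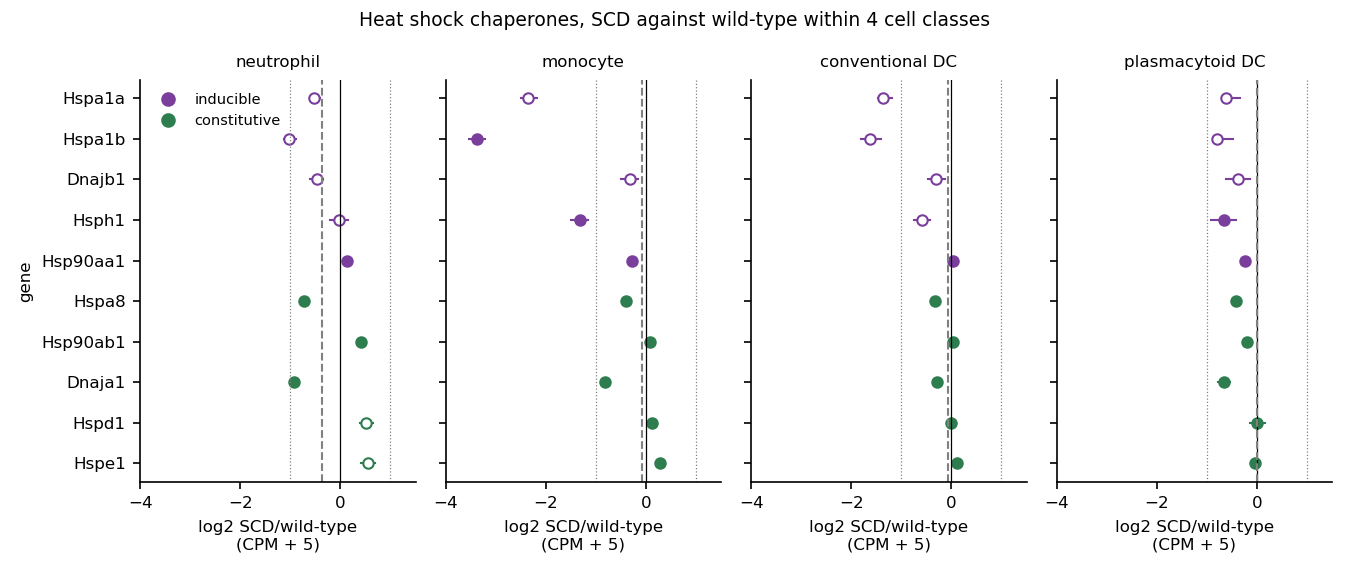
Log2 ratio of SCD over wild-type CPM, with 5 CPM added, for the 10 members in neutrophils, monocytes, conventional DCs and plasmacytoid DCs, with exact 95% intervals as horizontal lines. Filled points reached 50 CPM and 20 UMIs in a library and open points did not, dotted lines mark 2-fold and the dashed line the median of all genes compared in that class. Hspa1b in monocytes lies farthest left at -3.38, and Hspd1 and Hspe1 lie at or to the right of most other members in each panel.

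Of the members that entered the comparison, 2 of 8 were called lower in SCD monocytes, Hspa1b and Hsph1, where 5.95% of 3447 genes were lower and 3.05% were higher. In neutrophils 0 of 4 members were called, against 19.5% of 2490 genes lower and 1.69% higher. In conventional DCs 0 of 6 were called, against 5.31% lower and 2.78% higher, and in pDCs 0 of 7, against 0.231% and 0.346%. In red pulp macrophages 0 of 6 were called, against 6.38% and 3.11%, and over all kept cells 0 of 6, against 14.2% and 3.64%. The genes that entered the comparison depended on their level in the higher library, so these counts are not counts over all 10 members.

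Inducible and constitutive genes were set side by side by their medians. In monocytes the median log2 ratio was -1.33 over 3 inducible genes and 0.07 over 5 constitutive genes, against -0.08 over all 3447 genes compared. In pDCs it was -0.46 over 2 inducible and -0.20 over 5 constitutive genes, against 0.00. In conventional DCs Hsp90aa1 was the only inducible gene compared, at 0.03, and the 5 constitutive genes had a median of 0.00, against -0.06. In neutrophils Hsp90aa1 was again the only inducible gene, at 0.13, and 3 constitutive genes had a median of -0.72, against -0.38. These medians rest on few genes. With median-of-ratios scaling in place of CPM the neutrophil values were 0.52 and -0.33, and with no minimum on low counts, where all 10 members enter, the order turned, with -0.48 for inducible and 0.41 for constitutive genes. The conventional DC median of inducible genes changed sign in 6 of 13 alternative settings, down to -0.59. Over the summed CPM of each list, the SCD level was 0.642 of the wild-type level (0.620 to 0.665) for inducible and 0.904 (0.892 to 0.917) for constitutive genes in monocytes. The corresponding values were 0.969 (0.928 to 1.01) and 0.860 (0.842 to 0.878) in neutrophils, 0.929 and 0.931 in conventional DCs and 0.801 and 0.833 in pDCs. Relative to the wild-type level, the inducible sum was thus lower than the constitutive sum in monocytes and higher in neutrophils taken as 1 class. Within immature and mature neutrophils (divided by their granule genes) that order was not seen. Within single neutrophil clusters it was seen in c0, c2, c13 and c17 and not in c10 and c15. The inducible sum was 166 and 121 CPM in mature and 178 and 177 CPM in immature wild-type and SCD cells, and the constitutive sum 811 and 627 CPM and 616 and 635 CPM. In conventional DCs with under 5 cell cycle UMIs after thinning the inducible sum was 484 and 382 CPM and the constitutive sum 2958 and 2699 CPM. With at least 5 these sums were 860 and 752 CPM and 3862 and 3262 CPM. Hsp90aa1 makes up most of the inducible sum, so the sum shows little of Hspa1a and Hspa1b.

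Levels spanned a wide range over the classes. Between the highest and lowest of 6 wild-type classes the CPM ratio was 2.95 for Dnaja1, 5.90 for Hspa8, 43.8 for Hsp90aa1 and 257 for Hspa1b. Hspa8, Hsp90aa1, Hsp90ab1, Hsph1, Hspd1 and Hspe1 were lowest in neutrophils in both libraries. Among the 6 classes with at least 50 cells in both libraries, erythroid cells had the highest level of every member but Hspd1 and Hspe1. In SCD cells this level was not apart from red pulp macrophages for Hspa1a and Hsph1, nor from conventional DCs and red pulp macrophages for Dnaja1. Hspe1 was highest in pDCs, at 442 and 433 CPM, in SCD cells not apart from red pulp macrophages. Hspd1 in wild-type cells was highest in red pulp macrophages, at 138 CPM (111 to 169), not apart from conventional DCs and pDCs. In wild-type cells Hsp90aa1 followed the order erythroid cells, pDCs, conventional DCs, monocytes, red pulp macrophages and neutrophils with no overlap between neighbours. For Dnajb1 the intervals of monocytes and conventional DCs, of conventional DCs and neutrophils, and of neutrophils and red pulp macrophages overlapped.

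**Figure D4:**
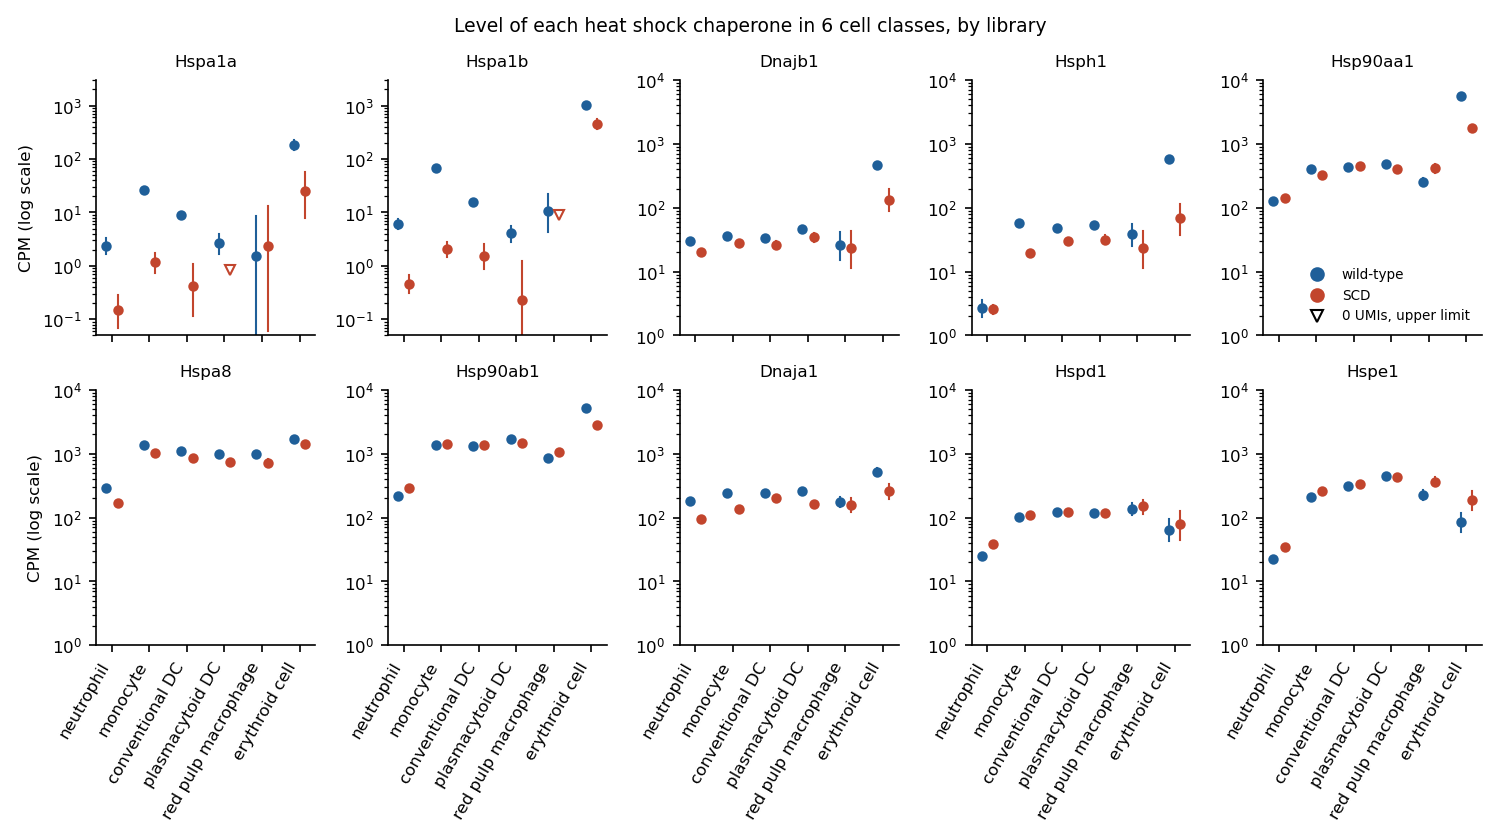
Level of each member in CPM (log axis, with a lower range for Hspa1a and Hspa1b) in 6 classes, with exact 95% Poisson intervals as vertical lines and open triangles at the upper limit of a count of 0. Wild-type and SCD points lie close together for Hsp90ab1, Hspd1 and Hspe1 in monocytes and both kinds of DC, and apart for Hspa1a and Hspa1b in every class but red pulp macrophages.

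In red pulp macrophages, which take up aged red cells, the inducible sum was higher in SCD, 329 against 462 CPM, a ratio of 1.40 (1.15 to 1.71), and the constitutive sum was not apart, at a ratio of 1.02 (0.946 to 1.11). The inducible sum rested on Hsp90aa1, which held 165 of its 215 wild-type and 173 of its 194 SCD UMIs. The other inducible genes were not higher in SCD beyond counting error. Hsph1 was at 38.3 and 23.8 CPM and Dnajb1 at 26.0 and 23.8 CPM. Hspa1b had 7 and 0 UMIs and Hspa1a 1 UMI in each library. Hsp90aa1 was at 253 CPM (216 to 294) and 412 CPM (353 to 478), a log2 ratio of 0.69, and Hspe1 at 227 CPM (192 to 266) and 362 CPM (307 to 424), a log2 ratio of 0.66. Hspa8 was lower, at 1006 and 726 CPM (-0.47, -0.67 to -0.27). These values rest on 653206 wild-type and 419956 SCD UMIs.

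The erythroid cells were few (55 wild-type and 53 SCD cells) and had the highest level of all classes in both libraries for each member but Hspd1 and Hspe1. In SCD cells the intervals overlapped those of red pulp macrophages for Hspa1a, Hsph1 and Dnaja1. They also overlapped those of B cells for Hsph1 and Dnaja1, and those of conventional DCs for Dnaja1. Hsp90aa1 was at 5678 CPM (5456 to 5907) in wild-type against 1793 CPM (1613 to 1988) in SCD cells, and Hspa1b at 1041 CPM (947 to 1142) and 456 CPM (367 to 559). Hsph1 was at 573 CPM (504 to 649) and 69.4 CPM (37.9 to 116), and Dnajb1 at 459 CPM (398 to 528) and 134 CPM (88.1 to 195). All 5 inducible genes were called lower in SCD, with log2 ratios from -2.96 (Hsph1) to -1.18 (Hspa1b). Dnaja1 was called lower (-1.01) and Hspe1 higher (1.10) among the constitutive genes. In this class 5.39% of 1669 genes were lower and 34.9% higher, with a median of 0.74. A few cells held most of the Hspa1a and Hspa1b molecules. The 5% of cells with most held 52.9% in the wild-type and 90.7% in the SCD library, and a UMI was found in 24 of 55 and 6 of 53 cells. The erythroid class had medians of 7747 and 2470 UMIs per cell.

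Hsp90aa1 was also high in clusters led by cell cycle genes. The dividing conventional DCs (c12, led by Tuba1b, Tubb5 and Top2a) held it at 1007 CPM in the wild-type library and the dividing monocytes (c22, with Pclaf and Birc5) at 589 CPM in the SCD library, where classical monocytes held 169 CPM. The neutrophil precursors with Elane and Mpo (c10) held it at 342 and 305 CPM, against 122 and 177 CPM in c0. Summed cell cycle genes were at 3352 and 8268 CPM in wild-type and SCD monocytes, and 23 of 26 compared genes of that list were called higher in SCD, against 3.05% of all genes compared.

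Monocytes were therefore divided by the cell cycle list, which holds no member. In the cells with under 5 UMIs of that list after thinning (929 wild-type and 803 SCD cells) Hsp90aa1 had levels of 384 and 173 CPM and a log2 ratio of -1.13 (-1.21 to -1.05). In the cells with at least 5 (126 and 537 cells) it had levels of 494 and 490 CPM and a log2 ratio of -0.01 (-0.12 to 0.10). Hspa1b was lower in SCD in both strata, by log2 ratios of -3.58 (-3.75 to -3.36) and -2.65 (-2.97 to -2.27), and Hsph1 by -1.61 (-1.83 to -1.40) and -0.72 (-1.08 to -0.35). Dnaja1 stood at -1.29 and -0.45. Under 5 cell cycle UMIs 4 of 8 members compared were called lower, against 4.54% of genes, and with at least 5 UMIs 0 of 6, against 3.5%. Hspa1b and Hsph1 missed the minimum of 50 CPM in the latter, at 42.6 and 42.0 CPM in the wild-type library. With a cut of 3 UMIs in place of 5, 2 of 8 members were called lower in the upper stratum, against 6.06%, and Hsp90aa1 stood at -0.16 (-0.24 to -0.09) there and at -1.10 below the cut. The clusters of monocytes also differed in level. Within classical monocytes (c5) Hsp90aa1 was at 245 and 169 CPM, a wild-type over SCD ratio of 1.45 (1.36 to 1.55), and within non-classical monocytes (c8) at 681 and 386 CPM, a ratio of 1.76 (1.48 to 2.11).

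Neutrophils were divided by maturity. A cell was called immature when it held, after thinning, more UMIs of early and intermediate granule genes than of late genes, which gave 496 wild-type and 3965 SCD immature cells and 3817 and 3205 mature cells. In immature neutrophils Hspa1a and Hspa1b had 2 to 16 UMIs per library and ratios whose intervals included 0, as did those of Dnajb1, Hsph1, Hsp90aa1 and Dnaja1. Hspa1a was at 0.330 and 0.0847 CPM and Hspa1b at 0.495 and 0.339 CPM in these cells. At such levels the 5 CPM added keep the ratio small whatever the fold, so the strata cannot be compared for this pair. There Hspe1 was at 14.7 and 31.7 CPM (0.90, 0.66 to 1.14), Hspd1 at 27.4 and 38.8 CPM (0.44), Hsp90ab1 at 240 and 299 CPM (0.31) and Hspa8 at 237 and 175 CPM (-0.43). In mature neutrophils Dnaja1 was at 234 and 103 CPM (-1.15, -1.24 to -1.05), Hspa8 at 317 and 160 CPM (-0.97, -1.05 to -0.89), Hspa1b at 9.50 and 0.924 CPM (-1.29) and Hspe1 at 26.9 and 46.9 CPM (0.70). Over the whole mature stratum Hsp90aa1 was lower in SCD, at 115 and 95.8 CPM (-0.25, -0.36 to -0.14), against 153 and 154 CPM in immature cells. Within single clusters Hsp90aa1 was higher in SCD in c0 (122 and 177 CPM), c2 (61.1 and 100 CPM) and c13 (49.8 and 70.6 CPM). It was lower in c10 (342 and 305 CPM) and c15 (80.4 and 76.4 CPM), and at 89.2 and 92.6 CPM in c17. Dnaja1 was the 1 of 4 members called lower in mature cells, against 13% of genes, and in immature cells 0 of 4 were, against 0.101%. Within c0 Dnaja1 was at 251 and 169 CPM, under 2-fold apart. It was at 99.7 and 95.3 CPM in c2, 81.3 and 88.4 CPM in c13 and 90.5 and 79.4 CPM in c15. Most wild-type neutrophils lay in c0 and most SCD neutrophils in other clusters, and the part of this mix in the stratum values was not tested. Hspe1, Hspd1 and Hsp90ab1 were thus higher in SCD at both stages, and Dnaja1 was lower in mature cells. In immature cells with under 5 cell cycle UMIs Dnaja1 was lower too, by a smaller ratio of -0.27 (-0.43 to -0.12).

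**Figure D5:**
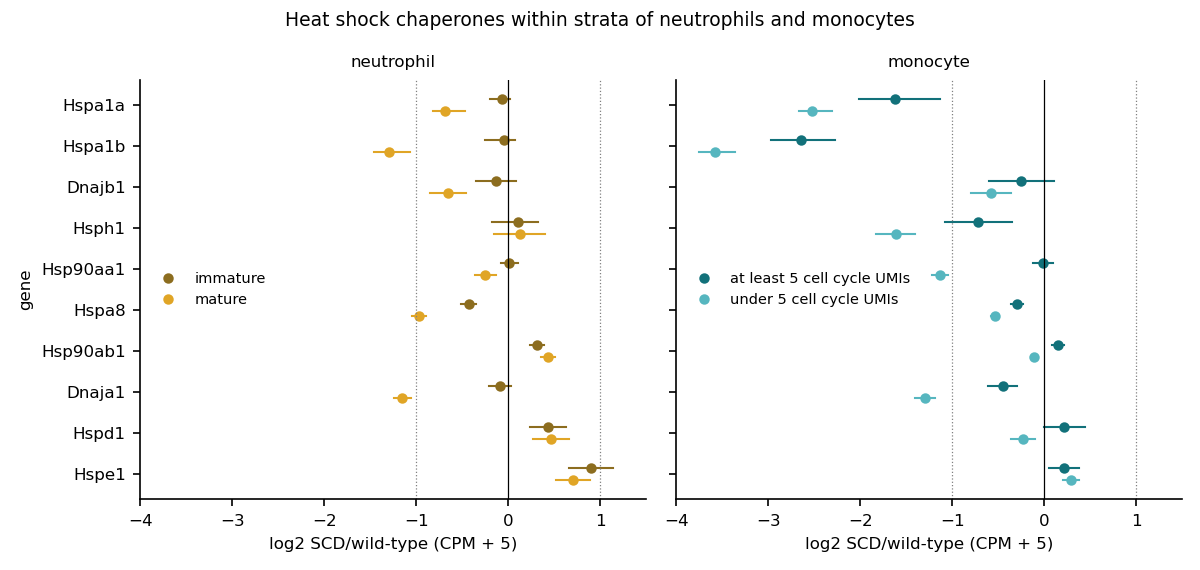
Log2 ratio of SCD over wild-type CPM, with 5 CPM added, for the 10 members in immature and mature neutrophils and in monocytes with at least 5 and under 5 cell cycle UMIs after thinning, with exact 95% intervals and dotted lines at 2-fold. Hsp90aa1 and Dnaja1 lie apart between the monocyte strata, and Dnaja1 lies farther left in mature than in immature neutrophils. Hspa1a and Hspa1b do so too, but their immature levels are far under the 5 CPM added, which keeps those ratios small whatever the fold of CPM.

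The inflammatory neutrophil cluster c0 differed from the whole class in Hsph1 and the inducible sum. Hsp90aa1, Hspe1, Hspd1, Hspa8 and Dnaja1 had the same direction in c0 as in the class. Within it Hsp90aa1 was at 122 CPM (115 to 130) in wild-type against 177 CPM (159 to 197) in SCD cells, and Hsph1 at 3.51 CPM (31 UMIs) and 11.9 CPM (22 UMIs). Hspe1 was at 28.6 and 87.0 CPM and Hspd1 at 25.4 and 65.4 CPM. Hspa8 was at 334 and 258 CPM and Dnaja1 at 251 and 169 CPM. The inducible sum was higher in SCD, 177 against 225 CPM, while the constitutive sum had overlapping intervals, 849 (830 to 869) and 875 (833 to 919) CPM.

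Immediate early genes, which handling of cells induces along with heat shock genes, were lower in SCD in the same 4 classes as Hspa1a and Hspa1b. Their summed level over 25 genes was 6413 CPM in wild-type and 1293 CPM in SCD neutrophils, 4075 and 1578 CPM in monocytes, 3646 and 2243 CPM in conventional DCs and 1917 and 1407 CPM in pDCs. Of the genes of this list that entered the comparison, 14 of 16 were called lower in SCD neutrophils, 13 of 16 in monocytes, 6 of 18 in conventional DCs and 0 of 10 in pDCs. Of all genes compared, 19.5%, 5.95%, 5.31% and 0.231% were called lower in these classes, so that few calls of any kind were made in pDCs. The summed level was lower in SCD in 16 of 17 clusters. The exception was the erythroid cluster, where it was higher, at 2999 and 4087 CPM, while the Hspa1a and Hspa1b pair was lower. Over the 17 clusters the wild-type over SCD ratio of the summed level had a median of 1.22. Within neutrophil clusters the gap was much smaller than over the class. The level was at 10501 and 6789 CPM in c0, 4633 and 3060 CPM in c2, 682 and 572 CPM in c10, 1880 and 1621 CPM in c13, 1114 and 985 CPM in c15 and 788 and 704 CPM in c17. The part of the mix of clusters was not tested. In red pulp macrophages 8 of 11 genes of the list were called lower, against 6.38% of all genes. Their part in the chaperone differences was not tested. The mitochondrial share of counts per cell had medians of 0.378% and 0.671% in neutrophils, 2.69% and 3.30% in monocytes, 2.998% and 3.20% in conventional DCs and 5.11% and 5.17% in pDCs. Intermediate granule genes of neutrophils were called higher in SCD for 4 of 8 genes compared in monocytes, 7 of 8 in conventional DCs, 5 of 6 in pDCs and 4 of 7 in red pulp macrophages, against 3.05%, 2.78%, 0.346% and 3.11% of all genes compared. Early granule genes were higher for 4 of 4 compared in monocytes, and late genes lower for 8 of 10 in red pulp macrophages. These lists were measured beside the chaperones, and their part in the chaperone values was not tested.

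The lists of other chaperones held other HSP70 genes (10), other J-domain genes (20), cochaperones of HSP70 and HSP90 (20), heat shock factors and their regulators (5), the cytosolic chaperonin TRiC (8), other mitochondrial chaperones and proteases (10) and chaperones of the endoplasmic reticulum (17). Some genes are on more than 1 list, and only genes that reached 50 CPM were compared. In neutrophils these were 1 of 10 other HSP70 genes, 5 of 20 J-domain genes, 4 of 20 cochaperones, 1 of 5 heat shock factors and regulators, 1 of 8 TRiC genes, 1 of 10 mitochondrial genes and 6 of 17 endoplasmic reticulum genes. Of the genes compared, 0 were past 2-fold in either direction in neutrophils, where 19.5% of all genes compared were lower and 1.69% higher. In monocytes (5.95% and 3.05%), conventional DCs (5.31% and 2.78%) and pDCs (0.231% and 0.346%) 0 of those compared were past 2-fold too. In monocytes 11 cochaperones had a median of 0.02, 12 J-domain genes of 0.15, 8 TRiC genes of 0.18 and 13 endoplasmic reticulum genes of -0.02, against -0.08 over all genes compared. In red pulp macrophages the only call was Hspa13, an HSP70 relative of the endoplasmic reticulum, at 26.0 and 61.9 CPM (1.11, 0.28 to 1.93). In erythroid cells, where 34.9% of genes were higher and 5.39% lower, 1 of 2 other HSP70 genes was higher and 1 lower, 3 of 8 J-domain genes were higher and 1 lower, 1 of 9 cochaperones was higher and 4 lower, and 2 of 4 TRiC and 5 of 9 endoplasmic reticulum genes were higher. None of the 10 small heat shock protein genes reached the minimum level in these classes.

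The pattern most like that of the summed pair was sought over 40 points, each a cluster in 1 library with at least 50 cells. By the correlation of log2(CPM + 5), the 10 closest of 7118 genes were Xpo7, Zc3hav1, Yipf4, Bag3, Zfp874b, Fam220a, Pabpc1, Tmem33, Specc1 and Zfp874a, with Pearson's r from 0.77 to 0.74. Bag3 encodes a cochaperone of HSP70 that is itself a heat shock gene. Among the members, Dnajb1 ranked 17, Hsph1 45, Dnaja1 85, Hsp90aa1 143, Hsp90ab1 228, Hspa8 230, Hspe1 1384 and Hspd1 1880. Over the points of both libraries the order thus did not follow the division into inducible and constitutive genes, since Dnaja1 came before Hsp90aa1. Among SCD points alone it did, with r of 0.69 for Dnajb1, 0.51 for Hsp90aa1 and 0.45 for Hsph1. The constitutive genes followed from 0.42 for Hsp90ab1 downwards. Among wild-type points Dnaja1 (0.745) again came before Hsp90aa1 (0.737). Points of 1 library share its depth and points of 1 class are alike, so these correlations are descriptions.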

How the data were processed

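Gene counts came from 2 droplet libraries (10x 3′ v3.1), 1 mouse each. The deposited count tables held raw UMIs per gene and cell, made by the authors with Cell Ranger 4.0.0 on GRCm38.p6 per the submitters' processing notes, which also name Seurat 3.2.3, Scanpy 1.6.0 and R 4.4. Per the study's methods both libraries were built in parallel on the same chip. Cell Ranger called the cells, and no barcode in the tables had fewer than 500 UMIs.

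Kept cells had 500 to 5000 genes, a mitochondrial share of counts below 15% and a ribosomal share below 30%. Genes in at least 20 cells were scaled with scran 1.30.0 (R 4.3.3). Both libraries were clustered together in scanpy 1.11.5 (2000 variable genes, 30 components, 15 neighbours, Leiden resolution 1, igraph 0.11.9), with 130 chaperone, cochaperone and immediate early genes left out. The 24 clusters were named from marker lists by the mean of the best 8 markers with a margin of 0.05, a scoring rule written with the data at hand, so names may differ from the study's. Doublets were kept. Scrublet called 357 wild-type (3.79%) and 279 SCD cells (2.62%) at a score of 0.215, the automatic threshold of the wild-type library, since none was found for the SCD library, and an alternative left these cells out.

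UMIs were summed per class and library. Ratios used a pseudocount of 5 CPM with exact conditional binomial intervals, levels exact Poisson intervals and shares Clopper-Pearson intervals, all at 95% and for counting error only. No test was made, since each group held 1 sample. A floor of 3 UMIs stood in for counts of 0 and, for 10-fold lower genes, for any lower count. Named genes were all members, the 10 genes most like the summed Hspa1a and Hspa1b (those most like Hsp90ab1 are not reported here), and up to 4 genes per pathway list past 2-fold. The members and lists were chosen with earlier results of these data known. The ratio calculation was tested on simulated data. Promoters came from RefSeq and gene positions from GENCODE vM21.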

Additional observations from a re-analysis of the deposited data

Results flagged for a closer look

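The log2 ratio of Hsp90aa1 pointed in opposite directions in neutrophils (0.13) and monocytes (-0.29), a difference of 0.42. That of Hsp90ab1 did so in neutrophils (0.41) and pDCs (-0.20), a difference of 0.62. Over the whole stratum of mature neutrophils Hsp90aa1 stood at -0.25 (-0.36 to -0.14), the direction of monocytes. In immature ones it stood at 0.02 with an interval that includes 0. Within the neutrophil clusters c0, c2 and c13 it was higher in SCD, at 122 and 177, 61.1 and 100, and 49.8 and 70.6 CPM. In c10 and c15 it was lower in SCD, at 342 and 305 and at 80.4 and 76.4 CPM, and c17 held 89.2 and 92.6 CPM. The part of the mix of clusters in the stratum value was not tested. With 1 mouse per group the differences were not tested, and the sign of Hsp90aa1 in neutrophils changed in 1 of 13 alternative settings.

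Cells left out by the filters also held chaperone molecules. In the cells with at least 15% mitochondrial counts, the inducible genes summed to 776.9 CPM (730.0 to 826) in the SCD library (586 cells) and to 353 CPM (297 to 417) in the wild-type library (248 cells). The constitutive genes summed to 2497 and 1193 CPM there. In the cells with under 500 genes the direction was the other way for both lists, 3922 and 1002 CPM for inducible and 5143 and 2697 CPM for constitutive genes in the wild-type and SCD libraries. In these shallow wild-type cells Hspa1b was at 296 CPM and Hsp90aa1 at 3216 CPM. The cells with over 5000 genes (517 and 1436 cells) held the most molecules left out, and their sums were close, 3127 and 3064 CPM for inducible and 9153 and 9195 CPM for constitutive genes in the wild-type and SCD libraries. Hspa1b was still lower in SCD there, at 10.8 and 3.08 CPM, as was Hspa1a at 1.66 and 0.309 CPM. In the cells with at least 30% ribosomal counts (558 and 717 cells) the sums were 2900.2 and 2464 CPM and 8826 and 8262 CPM. A cell could meet more than 1 of these 4 conditions.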

How the results depend on the processing

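The wild-type over SCD ratio of summed Hspa1a and Hspa1b stayed above 1 and within its interval in all 35 combinations of class and alternative setting, from 9.82 to 13.9 in neutrophils, 25.4 to 33.7 in monocytes, 10.3 to 16.3 in conventional DCs and 13.6 to 29.7 in pDCs, the lowest with called doublets removed. Leaving out the 5% of cells with most of the pair, like leaving out barcodes seen in both libraries an alternative chosen after seeing the data, gave no ratio, since no SCD UMIs remained.

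The medians over few members moved more, 30 beyond their interval and 74 not. For inducible genes the neutrophil median (0.13) was 0.52 with median-of-ratios scaling, -0.48 with no minimum on low counts, -0.0484 as a mean over cells and 0.0284 with each library clustered on its own. The monocyte median (-1.33) was -0.96 with a pseudocount of 20 CPM and -1.49 as a mean over cells. The conventional DC median (0.03) was 0.0943 with median-of-ratios scaling, -0.59 with no minimum, -0.55 with no upper limit on genes, -0.36 with no mitochondrial and ribosomal filter, -0.24 with stress genes allowed in the clustering, -0.34 at resolution 2 and -0.31 with each library clustered on its own. The pDC median (-0.46) was -0.21 with no mitochondrial and ribosomal filter and -0.25 with stress genes allowed.

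For constitutive genes the neutrophil median (-0.72) was -0.33 with median-of-ratios scaling, 0.41 with no minimum, -0.92 as a mean over cells, -0.60 with at least 1000 genes and -0.79 with each library clustered on its own. The monocyte median (0.07) was 0.16 with median-of-ratios scaling, -0.0678 as a mean over cells, -0.18 with no upper limit on genes, 0.11 with no mitochondrial and ribosomal filter and 0.11 at resolution 2. The conventional DC median (0.00) was 0.0639 with median-of-ratios scaling, 0.0837 as a mean over cells, -0.17 with no upper limit and -0.12 with no mitochondrial and ribosomal filter, and the pDC median (-0.20) was -0.11 with that filter off. With no minimum more members enter the median, and for the other settings the cause was not tested.

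Among ratios of single members 402 stayed within their interval and 118 did not. Shares of cells with a Hspa1a or Hspa1b UMI stayed within their interval in 6 combinations of class, library and depth and not in 10. Thinned to 2000 UMIs the wild-type share was 1.68% in neutrophils, 14.1% in monocytes, 2.63% in conventional DCs and 0.927% in pDCs. Without thinning the wild-type and SCD shares were 2.34% and 0.487% in neutrophils, 30.3% and 3.28% in monocytes, 7.34% and 2.01% in conventional DCs and 3.03% and 0.202% in pDCs. With the cell cycle cut at 3 UMIs, 43 ratios within strata stayed within their interval and 17 did not. Hsp90aa1 in monocytes ranged from -1.01, with no upper limit on genes, to -0.16, at resolution 2. No paired analysis was possible because the wild-type and SCD groups have 1 sample apiece. Counts of 0 to 2 UMIs limit Hspa1a and Hspa1b in SCD pDCs, red pulp macrophages and most neutrophil clusters.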
